A study of Mus musculus with 2 samples.

Results

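Hair matrix and inner root sheath cells were picked out of dissociated mouse back skin by the transcripts of 8 genes. A cell was taken when at least 3 of the keratin genes Krt25, Krt27, Krt28, Krt71, Krt73 and Krt35 and the transcription factor genes Msx2 and Hoxc13 each had at least 1 UMI, and when these 8 genes held at least 5 UMIs together. A UMI (unique molecular identifier) stands for 1 captured transcript. This rule found 147 of 19468 cells, 114 in the wild-type (WT) library and 33 in the Chrna5-/- library. The 8 genes chose the cells, so their high level in the chosen cells is a description and not a finding.

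The series held 1 single-cell RNA library of each genotype. Chrna5 encodes the alpha5 subunit of the nicotinic acetylcholine receptor, a channel opened by acetylcholine. Both libraries came from the dorsal skin of female C57BL/6 mice aged 6 to 8 weeks, taken at day 7 of treatment with vaseline, the cream base that served as the control. The knockout line had been backcrossed to C57BL/6N, while the extraction protocol named C57BL/6J mice and an imiquimod treatment that the sample labels did not give. Fat was scraped away, collagenase released the cells, and those that excluded the dye SytoxBlue were sorted as alive, with no selection for cell type. How many mice went into each library, and which part of Chrna5 was deleted, were not given in the sources used here. With 1 library per genotype there was no replicate, and genotype, animal and library preparation cannot be told apart. Every interval below is an exact 95% interval that covers counting error only, and no p-value was computed.

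The chosen cells were close in depth to the other keratinocytes. They held 2079852 UMIs in the WT library (median 16058 per cell, from 1101 to 64257) and 493873 UMIs in the knockout library (median 15056, from 1620 to 31519). The medians of the 7937 WT and 7496 knockout other keratinocytes, cells with at least 10 UMIs of Krt5, Krt14, Krt1 and Krt10 together and not chosen by the rule, were 14759 and 14425. No barcode was shared between the chosen cells of the 2 libraries, while 34 barcodes were shared among all deposited cells. A Scrublet doublet score of at least 0.25 was found in 16 of the 114 WT cells (14.0%) and in 1 of the 33 knockout cells (3.03%), against 4.79% and 4.72% of all cells of these libraries.

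The hair matrix is the dividing epithelium at the base of a growing hair follicle. Its daughters move upward and form, from the outside in, the inner root sheath and the hair shaft. The inner root sheath is a stiff sleeve that moulds the shaft and is later shed; it is built from type I keratins (Krt25, Krt27, Krt28) that pair with type II keratins (Krt71, Krt73) and from trichohyalin, the product of Tchh. Krt35 is an early keratin of the hair shaft, Hoxc13 a homeobox factor that switches on shaft keratins, and Msx2 a homeobox factor of the matrix that acts downstream of BMP signals. Wnt, Hedgehog, BMP and Notch signals are known to divide the matrix into its lineages.

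The promoters of the 5 inner root sheath keratins are shown because these genes supplied most of the UMIs by which the cells were chosen. Each sequence is the 250 bases upstream of the start listed by RefSeq on GRCm38.p6, 5′ to 3′ on the gene's own strand, which is the minus strand of the chromosome for all 5. Krt25 (chr11:99322952-99323201), Krt27 (chr11:99351119-99351368) and Krt28 (chr11:99374904-99375153) lie together in the type I cluster. Krt71 (chr15:101743098-101743347) and Krt73 (chr15:101802361-101802610) lie in the type II cluster. Capitals mark matches on either strand to TATAAA (the core of a promoter's TATA box), AGATAA (the motif of GATA factors), CTTTGA (that of LEF1 and TCF factors) and TAATTG (that of Msx and Dlx homeodomains), and no 2 of the matches overlapped.
Krt25: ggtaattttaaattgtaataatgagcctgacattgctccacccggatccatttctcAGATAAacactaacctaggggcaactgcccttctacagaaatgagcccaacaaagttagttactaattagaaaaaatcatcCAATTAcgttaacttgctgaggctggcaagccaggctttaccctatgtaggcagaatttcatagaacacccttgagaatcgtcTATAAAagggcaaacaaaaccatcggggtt
Krt27: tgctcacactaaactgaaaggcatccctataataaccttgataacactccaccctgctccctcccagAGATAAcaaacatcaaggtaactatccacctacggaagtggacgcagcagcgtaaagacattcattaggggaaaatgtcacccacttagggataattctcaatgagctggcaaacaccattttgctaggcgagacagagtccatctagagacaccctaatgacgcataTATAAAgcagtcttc
Krt28: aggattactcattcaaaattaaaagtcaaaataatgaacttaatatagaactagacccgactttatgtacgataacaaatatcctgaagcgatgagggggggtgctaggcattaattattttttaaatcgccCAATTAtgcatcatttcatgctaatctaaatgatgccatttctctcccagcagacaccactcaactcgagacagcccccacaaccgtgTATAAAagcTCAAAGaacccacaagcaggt
Krt71: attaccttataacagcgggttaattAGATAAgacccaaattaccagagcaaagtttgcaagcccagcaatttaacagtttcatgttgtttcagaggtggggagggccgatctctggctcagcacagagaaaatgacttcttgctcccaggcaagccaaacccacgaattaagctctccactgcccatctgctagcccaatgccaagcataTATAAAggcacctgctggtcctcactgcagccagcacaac
Krt73: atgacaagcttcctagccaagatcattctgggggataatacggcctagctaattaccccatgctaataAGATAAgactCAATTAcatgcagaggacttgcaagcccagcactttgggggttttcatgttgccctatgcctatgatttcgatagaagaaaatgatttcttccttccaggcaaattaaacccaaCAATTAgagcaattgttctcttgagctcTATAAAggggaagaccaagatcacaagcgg
TATAAA was present in 5 of 5, with its first base 30, 15, 30, 40 and 30 bases upstream in the order shown, and in 12.4% of all 32851 promoter sequences of the same length. AGATAA was present in 4 of 5, all but Krt28, at 194, 183, 225 and 182 bases upstream, and in 9.99% of all promoters. TAATTG was present on the other strand in Krt25, Krt28 and Krt73 (3 of 5) and in 7.17% of all promoters, and CTTTGA in Krt28 alone and in 13.8% of all. These matches describe the letters in these windows and do not show that a factor bound there.

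The 8 rule genes were low outside the chosen cells, though not all near 0. Levels are given as CPM, the gene's UMIs scaled to 1e6 UMIs summed over the cells of a library. Krt28 stood at 419 CPM in the WT and 557 CPM in the knockout chosen cells, with 871 UMIs in 108 of 114 cells and 275 UMIs in 31 of 33 cells. In other keratinocytes it stood at 0.54 and 0.37 CPM. Msx2 stood at 3.34 and 3.26 CPM there and Hoxc13 at 3.33 and 2.00 CPM, found in 382 and 291 of the 7937 WT cells. Krt25 had 526 UMIs in 90 WT cells and 246 UMIs in 29 knockout cells. Krt27 had 175 UMIs in 75 WT cells and 53 UMIs in 25 knockout cells. The Krt25, Krt27 and Krt28 UMIs were thus spread over most of the chosen cells of both libraries.

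The type II partners and the shaft keratin were found in fewer cells. Krt71 had 424 UMIs in 34 WT cells, 96 of them in 1 cell, and 57 UMIs in 7 knockout cells, 31 of them in 1 cell. Krt73 had 34 UMIs in 9 WT cells and 3 UMIs in 3 knockout cells. Krt35 had 43 UMIs in 8 WT cells, 27 of them in 1 cell, and none in the 33 knockout cells. Of the transcription factors, Msx2 was found in 93 WT and 28 knockout cells (374 and 108 UMIs), and Hoxc13 in 54 and 15 (114 and 21 UMIs). The 551 WT and 529 knockout cells with T cell genes should lack these transcripts and had median depths of 2908 and 3018 UMIs. Among them Krt28 was found in 3 and 0 cells, Krt25 in 4 and 0, Krt71 in 3 and 1 and Krt27 in none. Msx2 had 12 and 8 UMIs in these cells.

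The rule cut through a thin tail of cells. The 8-gene sum of the chosen cells had a median of 16 UMIs (from 5 to 161) in the WT and 18 (from 7 to 144) in the knockout library. Just inside the rule, 35 WT and 6 knockout cells had exactly 3 of the genes, and 4 and 0 cells had exactly 5 UMIs. Just outside it, 15 WT and 13 knockout cells had 5 or more UMIs in only 2 of the genes, and 7 and 4 cells had 3 or more genes but only 3 or 4 UMIs.

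Many genes differed between the chosen and the other cells in both libraries. Of the 3488 genes with at least 20 UMIs in the chosen cells of each library, 418 (12%) were at least 2-fold higher than in all other cells in both libraries, 6 of them rule genes, and 1132 of 14732 (7.68%) were at least 2-fold lower; since the cells were chosen by their transcripts, no test was made of this. The 12 genes outside the rule with the highest ratio were Cldn10, Dlx2, Dlx1, Dlx3, Msx1, Sox5, Mycn, Bach2, Tspan18, Nrp2, Cntfr and Foxe1. Cldn10, which encodes the tight junction protein claudin 10, stood at 238 and 221 CPM in the WT and knockout chosen cells against 0.27 and 0.22 CPM in other keratinocytes. It was detected in 82 of 114 and 25 of 33 cells. The Dlx genes encode distal-less homeobox factors, of which Dlx3 is needed for hair formation. Dlx3 stood at 202 and 269 CPM (99 and 29 cells), Dlx2 at 195 and 166 CPM (87 and 22 cells) and Dlx1 at 37.5 and 44.6 CPM (48 and 13 cells), with each at 1.64 CPM or less in other keratinocytes. Msx1, a relative of Msx2, stood at 96.2 and 83.0 CPM. None of the 12 was called higher or lower in the knockout library by the criterion given below, beside 6.15% of all measured genes. The 12 were ranked by the lower ratio of the 2 libraries, which favours genes high in both.

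**Figure D1:**
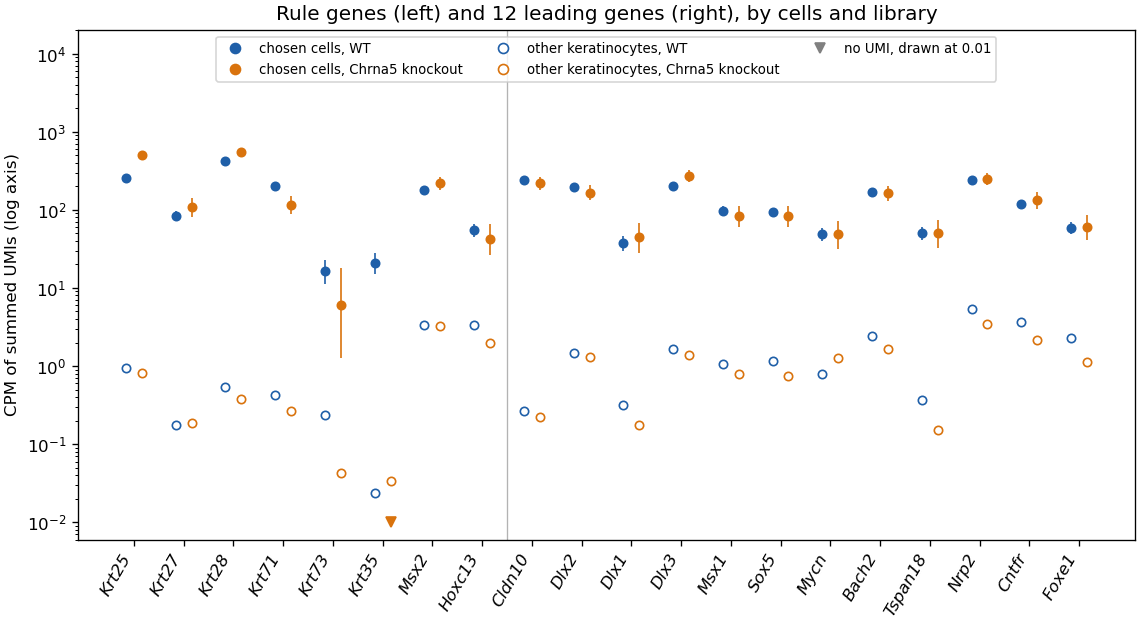
Summed level in CPM (log axis) of the 8 rule genes, left of the line, and of the 12 leading genes outside the rule, right of it, in the chosen cells (filled) and other keratinocytes (open) of each library; bars are exact 95% intervals of counting error. The 12 leading genes were picked for a high ratio to all other cells in both libraries, and lay far above other keratinocytes in both. Krt35 had no UMI in the knockout chosen cells.

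At least 2 UMIs of Dlx1, Dlx2, Dlx3 and Msx1 together were found in 108 of 114 WT cells (94.7%) and 30 of 33 knockout cells (90.9%), against 1.01% and 0.774% of other keratinocytes. Only 2 chosen cells in each library had no UMI of these 4 genes. Known regulators of the matrix were present as well. Lef1, the nuclear partner of beta-catenin, stood at 129 and 99.2 CPM against 2.25 and 1.97 CPM in other keratinocytes. Cux1, a homeodomain factor of the inner root sheath, stood at 858 and 1023 CPM against 68.9 and 74.0 CPM. Gata3, which is required for the inner root sheath, did not stand apart, with 165 and 235 CPM against 211 and 177 CPM. Of the 17 hair matrix regulators listed, 11 were measured between the libraries. At least 2-fold higher than in all other cells in both libraries were 6, beside 12% of the genes with 20 or more UMIs in each library. Among the 6 were Dlx1, Dlx2, Dlx3 and Msx1, already picked above by this same ratio. Listed genes with under 20 UMIs in either library could not be counted as higher, so these shares have unlike bases. Prdm1, with 14 and 0 UMIs, was at least 2-fold lower in both libraries.

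Genes of the finished hair shaft were at low levels. The 13 shaft genes found in the tables summed to 26.4 CPM in the WT and 24.3 CPM in the knockout chosen cells, against 9.20 and 15.1 CPM in other keratinocytes. S100a3 accounted for 47 of the 55 WT UMIs and 9 of the 12 knockout UMIs. Of these 13 genes, 8 had no UMI in the chosen cells. Outside the list, and named after its values were seen, the hair keratin-associated gene Krtap17-1 had 32 UMIs in 8 WT cells and 0 in the knockout cells. Sonic hedgehog (Shh), a ligand made in part of the matrix, had 16 UMIs in 4 WT cells, 10 of them in 1 cell, and 0 in the knockout cells.

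Markers of other skin cells were mostly low, but not all at 0, and Dcn and the sebocyte genes stood above other keratinocytes. Krt14, the main keratin of basal epidermis, was detected in 97 WT and 31 knockout chosen cells, with a median of 3 UMIs per cell in both libraries against 170 and 162 in other keratinocytes. With every cell thinned to 2000 UMIs, 42.9% and 53.1% of the chosen cells had a Krt14 UMI, against 59.8% and 60.7% of the cells with T cell genes and 97.1% and 96.6% of other keratinocytes. At that depth the share of chosen cells with Krt14 was not above that in cells with T cell genes. Single chosen cells held up to 793 (WT) and 229 (knockout) Krt14 UMIs at full depth. Cells with T cell genes were taken only with fewer than 10 UMIs of Krt5, Krt14, Krt1 and Krt10 together. Their maxima of 8 and 5 Krt14 UMIs were thus bounded by the choice and are no measured limit of background. Krt1 (13.4% and 6.25%) and Krt10 (14.3% and 12.5%) were likewise below the share in cells with T cell genes after thinning. So were the melanocyte genes Dct (11.6% and 6.25%) and Pmel (5.36% and 3.12%). Krt5 was above that share, with 50.9% and 53.1% against 41.1% and 44.1%. The chosen cells had median depths of 16058 and 15056 UMIs before thinning, the cells with T cell genes 2908 and 3018. Free RNA can thus be diluted to unlike degrees, and these shares cannot tell whether a gene was at background. No gene of the endothelial, muscle or red blood cell lists was measured. Among 6 fibroblast genes, Dcn, which encodes the matrix proteoglycan decorin, had 998 and 203 UMIs in 55 and 19 chosen cells (480 and 411 CPM, against 18.3 and 20.2 CPM in other keratinocytes). The fibroblast genes Col1a1, Col1a2, Lum and Pdgfra had 1, 4, 2 and 0 UMIs in the WT and 0, 0, 3 and 1 in the knockout chosen cells, so Dcn was not accompanied by them. All 5 fibroblast genes other than Dcn, Col3a1 among them, had under 20 UMIs over both libraries. The 3 sebocyte genes Scd1, Mgst1 and Fasn summed to 302 and 263 CPM, against 143 and 110 CPM in other keratinocytes. They were found in 108 WT and 29 knockout chosen cells, and 1 of the 3 was at least 2-fold higher than in all other cells in both libraries. The 5 Langerhans cell genes, Epcam among them, summed to 234 and 174 CPM against 282 and 239 CPM in other keratinocytes. The 6 T cell genes had 82 UMIs in 8 WT chosen cells, 72 of them in 1 cell, and 6 UMIs in 4 knockout cells.

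The chosen cells differed from each other in the rule genes that they carried. The 5 inner root sheath keratins held 79.3% of the 8-gene UMIs in the WT library (2030 of 2561) and 83.1% in the knockout library (634 of 763). They made up at least 50% of a cell's 8-gene UMIs in 100 of 114 WT cells (87.7%, interval 80.3 to 93.1%) and 32 of 33 knockout cells (97.0%, interval 84.2 to 99.9%). Krt35 made up that share in 1 WT cell and no knockout cell, and 13 WT cells and 1 knockout cell were of neither kind. This division is a range and not a set of types: 16 WT and 3 knockout cells lay within 10 percentage points of the cut, and at a cut of 80% the shares were 50.9% and 48.5%.

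Krt71 and Krt35 were not found together in any WT chosen cell, and the knockout chosen cells had no Krt35 UMI. With Krt35 in only 8 WT cells, picked on these genes, this cannot show whether the keratins exclude each other. Of the 34 WT cells with Krt71, 31 had Krt25, and of the 7 knockout cells with Krt71, 7 had Krt25. None of the 34 had Krt35, while 7 of the 8 Krt35 cells had Hoxc13. Across the chosen cells of a library, which share its depth and were picked on these genes, Spearman's rho was 0.52 (WT, 114 cells) and 0.40 (knockout, 33 cells) between Krt25 and Krt71, and −0.31 and −0.23 between Krt71 and Msx2. Krt25 and Krt28 were found together in 84 and 27 cells, with the type I pair thus present in most cells whether or not Krt71 was.

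**Figure D2:**
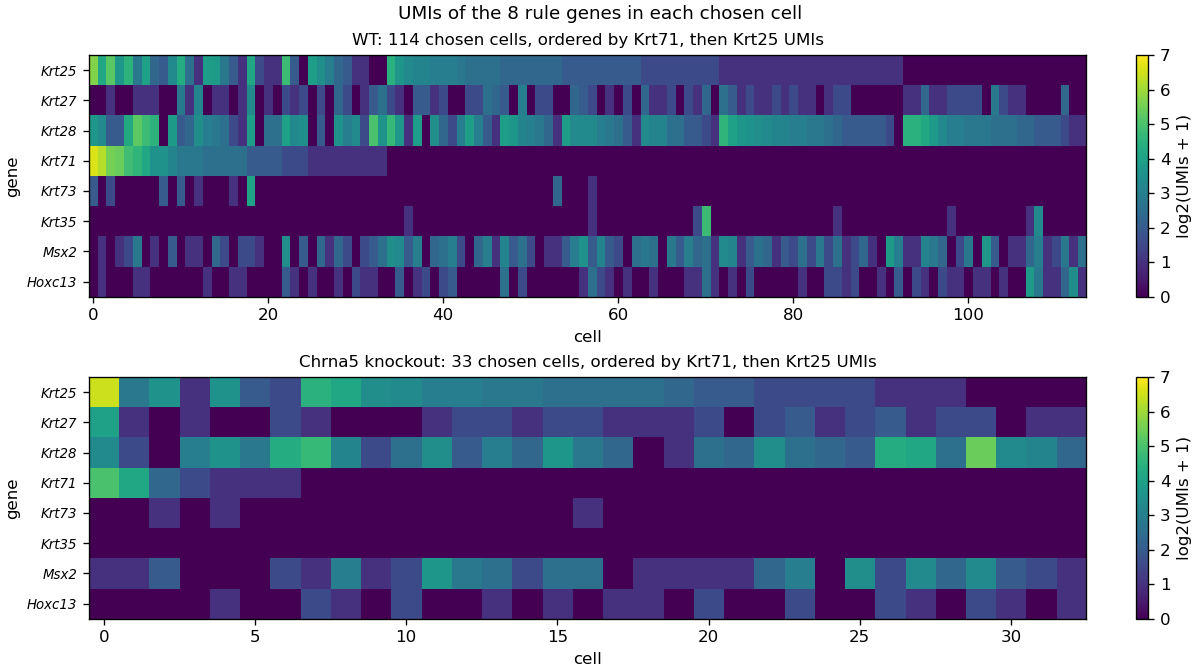
UMIs of the rule genes in the single chosen cells of each library, 1 column per cell ordered by Krt71 and then Krt25 UMIs, coloured by log2(UMIs + 1). Krt28 and Krt25 fill most columns in both libraries, Krt71 UMIs are concentrated in 34 WT and 7 knockout cells, and Krt35 is seen in 8 WT cells only.

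Chosen cells with a Krt71 UMI differed from those without in genes beyond the rule. This division was made after the values were seen, and the ratios are descriptions of cells within each library. Krt71, Krt25 and Msx2 are all rule genes, so the choice of cells itself shapes the ratios of Krt25 and Msx2 given here. The cells with Krt71 had medians of 14879 (WT) and 11887 (knockout) UMIs, and those without 16766 and 15961.5. Krt25 was 4.42-fold (3.70 to 5.30) higher in cells with Krt71 in the WT library and 6.16-fold (4.76 to 7.98) in the knockout library. In the knockout library 88 of the 122 Krt25 UMIs of cells with Krt71 lay in the cell with the most Krt71, and without it the ratio was 1.82 (1.21 to 2.68). Without the corresponding cell the WT ratio was 3.86 (3.20 to 4.65). Zfp750, which encodes a factor of terminal epidermal differentiation, was 3.19-fold (2.37 to 4.30) and 6.26-fold (3.41 to 11.5) higher. Notch1, the receptor that promotes differentiation in follicle and epidermis, was 2.28-fold (1.89 to 2.74) and 5.01-fold (3.29 to 7.59) higher, and its target Hes1 1.59-fold (1.20 to 2.10) and 4.28-fold (2.55 to 7.09). The transcription factor genes Maf (3.08-fold and 3.76-fold), Gata3 (1.63-fold and 1.99-fold) and Ovol1 (1.67-fold and 2.34-fold) were higher with Krt71 in both libraries as well, with every interval above 1. Without the cell with the most Krt71 in each library these 3 and Zfp750, Notch1 and Hes1 kept intervals above 1, with Maf at 2.47 in the knockout.

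Other genes were lower in cells with Krt71. Msx2, itself a rule gene, stood at 0.524 (0.392 to 0.692) of the level of cells without Krt71 in the WT library. In the knockout library it stood at 0.434 (0.170 to 0.927). Cldn10 stood at 0.442 (0.338 to 0.570) and 0.496, the latter with an interval (0.208 to 1.01) that reached 1. The metallothionein gene Mt1, which encodes a metal-binding protein, stood at 0.539 and 0.574. Lef1, Dlx3 and Krt14 did not move together in the 2 libraries: Lef1 stood at 0.443 in the WT and 1.61 in the knockout, Dlx3 at 0.920 and 2.07, and Krt14 at 1.63 and 0.199. The knockout values rest on 7 cells with Krt71, of which 5 held 96.5% of the Krt71 UMIs.

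**Figure D3:**
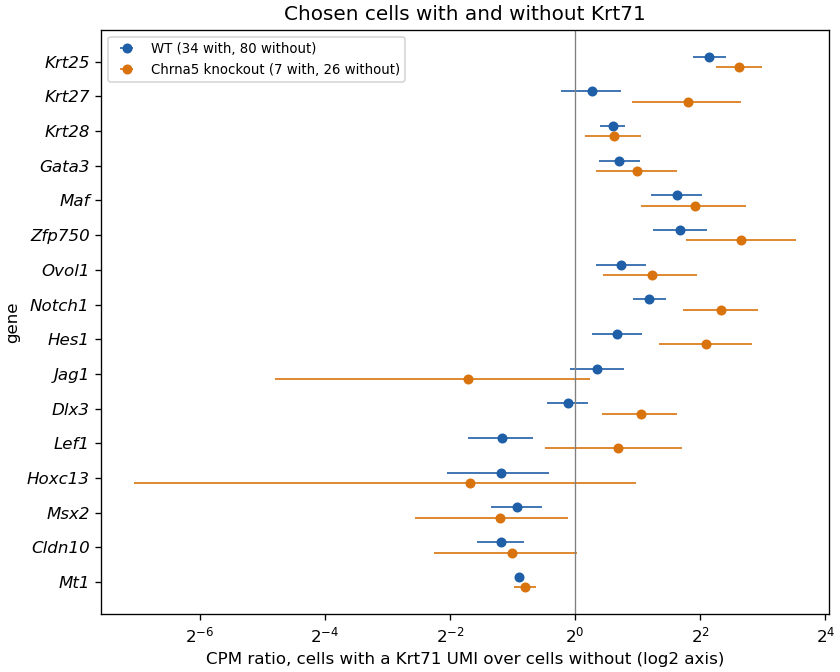
CPM in chosen cells with a Krt71 UMI over CPM in chosen cells without (log2 axis) for 16 genes in each library; bars are exact 95% intervals of counting error. Krt25, Zfp750, Maf, Notch1 and Hes1 lie above 1 and Msx2 and Mt1 below 1 in both libraries, whereas Lef1, Dlx3 and Jag1 lie on opposite sides. Krt25, Krt27, Krt28, Hoxc13 and Msx2 are rule genes, so the choice of cells shapes their ratios.

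Most chosen cells carried transcripts of the cell cycle. The summed level of 18 DNA replication genes was 1861 CPM in the WT and 2286 CPM in the knockout chosen cells, against 635 and 570 CPM in other keratinocytes. At least 3 UMIs of these genes were found in 96.5% and 90.9% of the chosen cells, and, with every cell thinned to 2000 UMIs, in 67.0% and 62.5%, against 15.2% and 12.6% of other keratinocytes. Of the 18 genes, 16 were at least 2-fold higher than in all other cells in both libraries, beside 12% of the genes with 20 or more UMIs in each library. The 21 genes of G2 and mitosis summed to 3428 and 3161 CPM against 1705 and 2315 CPM. Of these 21 only 2 were at least 2-fold higher in both libraries, beside the same 12%. Mki67, which marks cycling cells, was detected in 101 of 114 and 25 of 33 chosen cells.

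Some receptors and targets of the signalling pathways stood above other keratinocytes in both libraries, while other members of the same lists stood below. The Hedgehog receptor and target gene Ptch1 stood at 146 and 144 CPM against 21.2 and 18.4 CPM, and Gli1, the pathway's transcriptional target and effector, at 36.5 and 40.5 CPM against 2.88 and 2.19 CPM. The BMP target genes Id3 (1822 and 2339 CPM against 391 and 385 CPM) and Id1 (691 and 1012 CPM against 95.7 and 178 CPM) were higher too. The Wnt receptor gene Fzd1 stood at 169 and 162 CPM against 10.3 and 8.20 CPM. In the Notch pathway the receptor Notch1 stood at 226 and 200 CPM against 127 and 126 CPM, and Hes1 at 109 and 140 CPM against 33.2 and 38.7 CPM. Counted over the lists, 3 of 28 Wnt, 3 of 12 Hedgehog, 5 of 18 BMP and 1 of 14 Notch pathway genes were at least 2-fold higher than in all other cells in both libraries, against 12% of the genes with 20 or more UMIs in each library. At least 2-fold lower in both were 4 Wnt genes (Wnt3, Wnt10a, Wif1 and Sostdc1), 3 Hedgehog genes, 1 BMP gene (Bmp2) and 1 Notch gene (Notch3), against 7.68% of all genes. Genes with under 20 UMIs in the chosen cells of either library could not be counted as higher, though they stay in the list totals. The list shares and the 12% therefore have unlike bases, and no comparison was drawn from them. Of other genes of the follicle and its junctions, Lhx2, a factor of the follicle's progenitors, stood at 193 and 239 CPM against 20.9 and 11.6 CPM, and Gjb2 (connexin 26) at 287 and 273 CPM against 16.3 and 5.65 CPM.

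The chosen cells made up a smaller share of the knockout library. They were 1.12% of the cells in the WT library (114 of 10160, interval 0.926 to 1.35%) and 0.355% in the knockout library (33 of 9308, interval 0.244 to 0.498%), a knockout to WT ratio of 0.316 (0.208 to 0.469). Among keratinocytes the shares were 1.42% and 0.438%. Thinning every cell to 2000 UMIs left 11 and 4 cells that met the rule and a ratio of 0.397 with an interval of 0.0923 to 1.34, which does not leave out 1. These are shares of the cells that survived digestion and sorting of 1 sample per genotype, and a difference in follicle stage, dissection or recovery cannot be told apart from genotype.

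Chrna5 itself was barely detected. The gene (ENSMUSG00000035594, GRCm38 chromosome 9, 54980880 to 55007779, plus strand) had 4 UMIs in 3 of the 114 WT chosen cells, or 1.92 CPM (0.524 to 4.92), and 4 UMIs in the 7937 other WT keratinocytes, or 0.0316 CPM. None was found in the 33 knockout cells, where the interval of a count of 0 reaches up to 3.69 UMIs, or 7.47 CPM. A difference between the libraries was thus not detectable at this depth. Over all cells there were 13 UMIs in the WT and 3 UMIs in the knockout library. As the deleted part of the gene was not given, UMIs in the knockout library do not speak against the label.

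Between the libraries, summed UMIs of the chosen cells were compared gene by gene. A gene was measured when it had at least 20 UMIs over both libraries, and was called higher or lower in the knockout when its CPM ratio was at least 1.5 or at most 1 in 1.5 with an interval that left out 1. Of 8391 measured genes, 189 (2.25%) were higher and 327 (3.9%) lower in the knockout chosen cells, 516 (6.15%) in all. In other keratinocytes 2.83% of 15232 genes were higher and 8.53% lower. Of the 189 higher genes 7 were also among the 431 higher in other keratinocytes, and of the 327 lower genes 54 were among the 1300 lower there. The median log2 ratio was −0.05 over the measured genes of the chosen cells and −0.04 in other keratinocytes. Many calls rest on few UMIs: 132 of the lower genes had under 5 UMIs in the knockout cells, and 61 of the higher genes had under 20. When the cell with the most UMIs of a gene was left out of the library in which the gene was higher, 26 genes were higher and 186 lower. This step can only lower the level on the higher side, and it removes a larger part of the 33 knockout cells than of the 114 WT cells.

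Within the keratins that define the cells, 1 was higher and 2 were lower, which is a description because the rule used them. Krt25 stood at 253 CPM in the WT and 498 CPM in the knockout cells, a ratio of 1.97 (1.69 to 2.30), with 88 of the 246 knockout UMIs in 1 cell. Krt71 stood at 204 and 115 CPM, a ratio of 0.566 (0.422 to 0.748). Krt35, with 43 WT UMIs and none in the knockout, was 3.40-fold lower when the count of 0 is set to 3 UMIs. Krt27 (ratio 1.28, interval 0.92 to 1.74), Krt28 (1.33, interval 1.16 to 1.52), Msx2 (1.22), Hoxc13 (0.776) and Krt73 (0.372) did not meet the criterion. Without its top knockout cell the ratio of Krt25 was 1.26, and without its top WT cell that of Krt71 was 0.732, neither of them called. Krt25 was called in 13 of 15 other ways of processing, with log2 ratios from 0.24 to 1.81, and Krt71 in 12 of 15, from −1.35 to −0.19.

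The trichohyalin gene was the inner root sheath gene that differed most. Tchh (GRCm38 chromosome 3, 93442330 to 93449077), whose product fills and hardens inner root sheath cells, had 231 UMIs in 20 WT cells, 68 of them in 1 cell, and 5 UMIs in 4 knockout cells. Its level was 111 CPM in the WT and 10.1 CPM in the knockout, a ratio of 0.0912 (0.0293 to 0.216), and it was called in 15 of 15 other ways of processing. In other keratinocytes the ratio was 1.43. Trps1, a GATA-type factor needed for hair growth, had 98 UMIs in 37 WT and 8 UMIs in 8 knockout cells (ratio 0.344, 0.144 to 0.704) and was called in 14 of 14. Gata3 (165 and 235 CPM) was not called. Padi3, whose enzyme modifies trichohyalin, had 10 and 7 UMIs and was not measured.

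Regulators of the matrix were called in 1 of 11 cases. The vitamin D receptor gene Vdr, required for hair cycling, was lower (167 UMIs in 61 WT cells, 22 in 14 knockout cells, ratio 0.555, 0.339 to 0.868), but its log2 ratio was 0.12 under a rule of at least 4 genes and 10 UMIs. Cux1 (ratio 1.19), Dlx3 (1.33), Dlx2 (0.853) and Lef1 (0.767) were not called. None of 18 Wnt, 14 BMP and 8 Notch pathway genes was called, with median log2 ratios of −0.01, 0.03 and 0.18. In the Hedgehog pathway the co-receptor gene Boc was lower (44 UMIs in 31 WT cells, 3 in 3 knockout cells, ratio 0.287, 0.0570 to 0.896), while Ptch1 (0.984), Gli1 (1.11) and Smo (0.817) were not called. These counts stood beside a background of 6.15% of all measured genes.

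Most replication and mitotic genes were not called. Of 18 DNA replication genes, 2 were higher and none lower, beside 2.25% and 3.9% of all measured genes, with a median log2 ratio of 0.36 that stayed between 0.08 and 0.46 over 15 other ways of processing, against −0.16 in other keratinocytes. Pcna, the sliding clamp of DNA polymerase, had 360 UMIs in 95 WT and 133 UMIs in 26 knockout cells (ratio 1.56, 1.27 to 1.90), and Ung, a repair glycosylase, 84 and 33 UMIs (ratio 1.65, 1.07 to 2.50). Pcna was called in 10 of 15 other ways of processing and Ung in 11 of 14. Of 21 genes of G2 and mitosis, none was higher and 3 were lower, beside the same shares of all genes, with a median of −0.14 against 0.40 in other keratinocytes. Kif11, a spindle motor, had 220 UMIs in 57 WT and 24 UMIs in 12 knockout cells (ratio 0.459, 0.288 to 0.702; 1.35 in other keratinocytes). Cenpa, the histone of centromeres, had a ratio of 0.609 and Ccnb1, the mitotic cyclin, of 0.645, while Mki67 (1.16) was not called. The histone genes Hist1h1b (143 and 308 CPM, ratio 2.16, 1.76 to 2.63), Hist1h1a (2.38) and Hist1h2af (3.99) were higher in the knockout. They were named after their calls were seen, and histone genes were not counted as a list. Hist2h2bb was higher too (3.22), while Hist3h2ba (0.993) and H1fx (1.14) were not called.

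**Figure D4:**
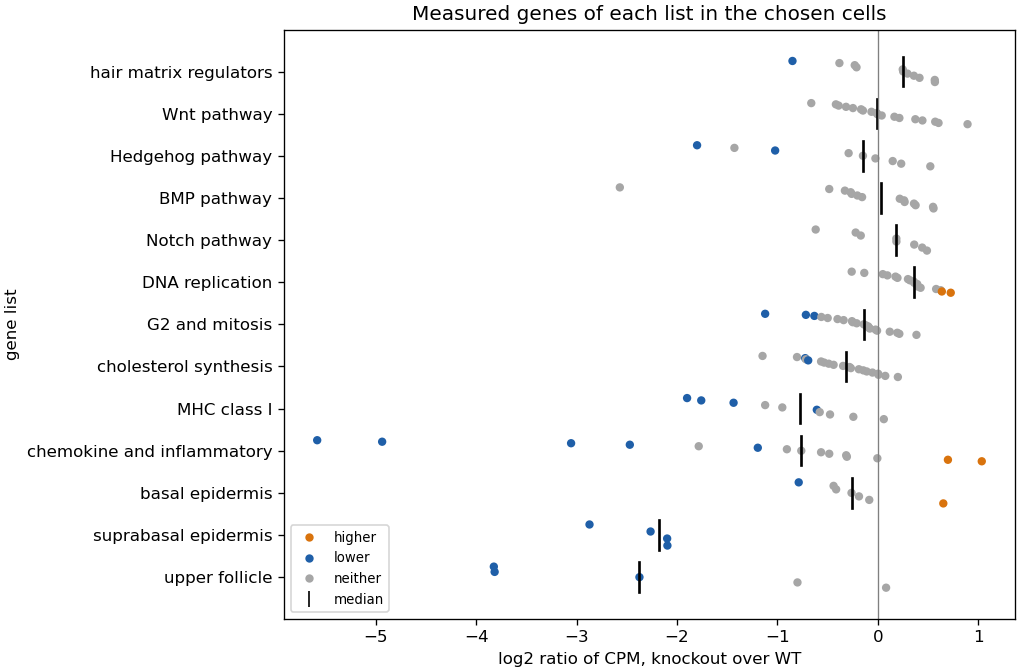
Log2 ratio of knockout to WT CPM in the chosen cells for each measured gene of 13 lists, coloured by call, with the list median as a bar. Wnt, BMP and Notch genes carried no call, replication genes had a median of 0.36 and mitotic genes of −0.14, and suprabasal and upper follicle genes lay far to the left.

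Genes called under every way of processing tried other than thinning and a higher UMI minimum numbered 13 of the 189 higher and 31 of the 327 lower ones. The 13 higher genes were Hist1h1b, Brwd1, Kansl1, Ptk2, Gm973, Atg101, Fam220a, Slc30a5, Ube2g2, Hist1h1a, Hist1h2af, Zfp296 and Kctd12. Ptk2, which encodes focal adhesion kinase, had 84 UMIs in 50 WT and 45 UMIs in 19 knockout cells, with 40.4 and 91.1 CPM, a ratio of 2.26 (1.53 to 3.28) and 2.75 in other keratinocytes. Kctd12 had the highest ratio of all, 6.51 (2.88 to 15.4), on 11 UMIs in 10 WT and 17 UMIs in 9 knockout cells. Next by ratio among all called genes came Hist1h2af (3.99), Arhgef26 and Tmem267 (both 3.83), Zfp296 (3.74), Fancd2 (3.65), a gene of DNA crosslink repair, Gm29666 (3.61) and Mfap2 (3.45), each on 18 or fewer knockout UMIs. Among the lower ones were the ribosomal protein gene Rpl29 (4159 UMIs in 113 WT and 539 in 31 knockout cells, ratio 0.546, 0.498 to 0.597) and the chemokine gene Cxcl14 (569 and 59 UMIs, ratio 0.437, 0.328 to 0.572). Other keratinocytes gave 0.558 for Rpl29 and 0.506 for Cxcl14, so Ptk2, Rpl29 and Cxcl14 differed between the libraries in those cells as well.

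A pair of the lower genes lies at the ends of the sex chromosomes. Gm47283 (GRCm38 chromosome Y, 90784738 to 90816464) had 609 UMIs in 104 of 114 WT cells and 4 UMIs in 3 of 33 knockout cells, a ratio of 0.0277 (0.00751 to 0.0712) and 0.0163 in other keratinocytes. Mid1 (chromosome X, 169685199 to 170005736), which encodes a ubiquitin ligase of microtubules, had 135 UMIs in 67 WT cells and none in the knockout cells. It was 10.7-fold lower with the count of 0 set to 3 UMIs, and the interval of its ratio reached up to 0.117. In other keratinocytes the ratio of Mid1 was 0.124. Both lie at the region that the X and Y chromosomes share, where reads of near-identical copies can be split, and their counts are uncertain. Whether such splitting bears on the difference between the libraries was not tested. Gm47283 is placed on chromosome Y, while the mice were described as female.

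**Figure D5:**
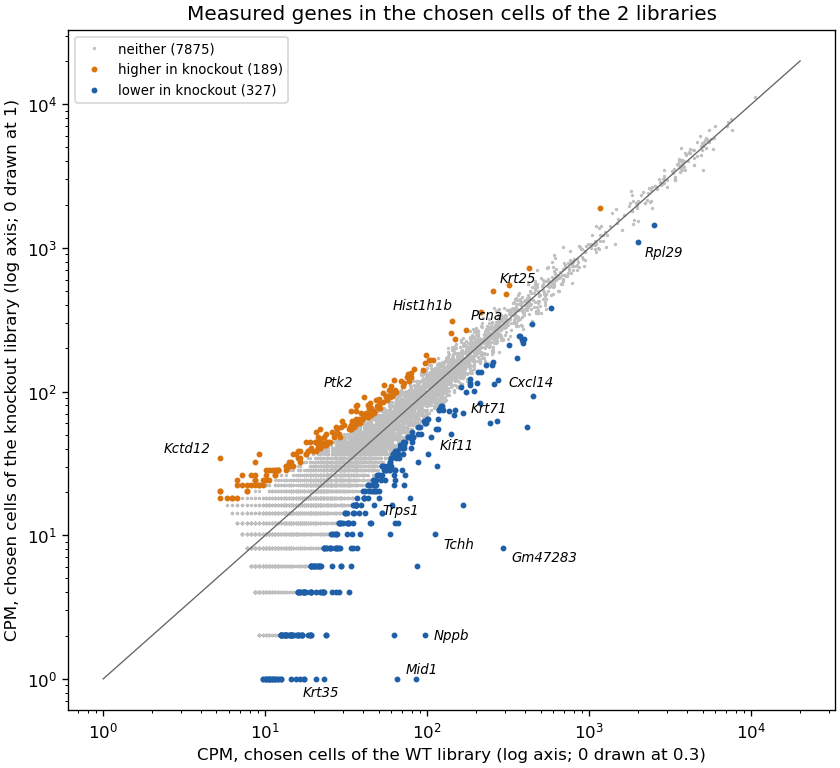
CPM of the 8391 measured genes in the chosen cells of the WT library (x) and the knockout library (y), both on log axes; 189 genes are coloured as higher and 327 as lower in the knockout. Krt25 and Hist1h1b lie above the diagonal, Krt71, Tchh, Gm47283 and Mid1 below it.

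Part of the lower genes rested on a few WT cells. The lowest ratios beside Gm47283 belonged to Nppb, Ccl20, Krt79 and Defb6. Nppb had 202 UMIs in 6 WT cells, 182 of them in 1 cell, and 1 UMI in the knockout (ratio 0.0208, 0.000525 to 0.117). Ccl20 had 129 UMIs in 11 WT cells, 92 of them in 1, and 1 knockout UMI (0.0326, 0.000820 to 0.185). Krt79 had 179 UMIs in 19 WT cells, 127 of them in 1, and 3 knockout UMIs (0.0706, 0.0144 to 0.210). Defb6 had 178 UMIs in 22 WT cells, 128 of them in 1, and none in the knockout. It was 14.1-fold lower with the count of 0 set to 3 UMIs, and the interval of its ratio reached up to 0.0882. Nppb encodes a natriuretic peptide, Ccl20 a chemokine, Krt79 a keratin of the upper follicle and Defb6 a defensin. Cdca7l, a relative of the cell division gene Cdca7, differed from these in its spread, with 49 UMIs in 34 WT cells and 1 UMI in 1 knockout cell (ratio 0.0859, 0.00213 to 0.502). All 4 measured genes of the suprabasal epidermis were lower, with a median log2 ratio of −2.18, and 3 of 5 of the upper follicle, with a median of −2.37. This share of lower calls was 3.9% over all measured genes. Krt1 had 863 UMIs in 43 WT cells, 207 of them in 1 cell, and 28 UMIs in 14 knockout cells (ratio 0.137, 0.0903 to 0.199). With cells that met at least 2 of the rule genes and 3 UMIs the log2 ratio of Krt1 was 1.12 and that of Krt79 0.94, so these directions turned with the rule. The WT chosen cells with a doublet score of at least 0.25 numbered 16 against 1 in the knockout. Without these cells the ratio was 0.468 for Krt1, 0.585 for Krt10, 0.217 for Krt79, 0.159 for Ccl20 and 0.244 for Defb6, each still called lower, while the suprabasal genes Sbsn (0.731) and Krtdap (0.868) were no longer called. The median log2 ratio of the suprabasal list was then −0.61 and that of the upper follicle list −0.77.

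Inflammatory genes were called in both directions. Of 15 measured chemokine and inflammatory genes, 2 were higher and 5 lower, beside 2.25% and 3.9% over all measured genes. Nfkbia, the inhibitor that NF-kB induces against itself, had 2411 UMIs in 103 WT and 929 UMIs in 31 knockout cells, with 1159 and 1881 CPM and a ratio of 1.62 with an interval above 1 and up to 1.75, and was called in 13 of 15 other ways of processing. Cxcl1, a neutrophil-attracting chemokine, had 113 and 55 UMIs in 30 and 14 cells (ratio 2.05, 1.46 to 2.85). Of 10 MHC class I genes, 4 were lower, among them Tap1 (57 UMIs in 34 WT and 4 in 4 knockout cells, ratio 0.296, 0.0779 to 0.799) and H2-K1 (ratio 0.656, 0.537 to 0.796), whose log2 ratio was 0.19 without the cells of high doublet score. Of 6 interferon response genes 1 was lower, Ifi27l2a (130 and 11 UMIs, ratio 0.356; 0.134 in other keratinocytes). None of 17 immediate early and heat shock genes was called.

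The other lists were called as follows, beside 2.25% higher and 3.9% lower over all measured genes. Of 20 cholesterol synthesis genes 2 were lower, Sqle, an oxygenase of the pathway (ratio 0.618, 0.371 to 0.982), and Insig1, its feedback regulator (0.606, 0.364 to 0.961), with a median log2 ratio of −0.31. In other keratinocytes both had a ratio of 0.576. Of 9 desmosome genes 2 were lower, the plakophilin genes Pkp1 (0.599) and Pkp3 (0.569). Of 12 genes of EGF, FGF and IGF signalling 1 was higher and 3 were lower. Igfbp3, a binding protein of insulin-like growth factors, was higher (290 and 127 UMIs, ratio 1.84, 1.48 to 2.28) on 7 knockout cells, 57 of its UMIs in 1 of them. Epgn, a ligand of the EGF receptor, was lower (209 UMIs in 27 WT and 18 in 5 knockout cells, ratio 0.363, 0.211 to 0.588). Of the basal keratins, Krt14 had a ratio of 0.579 (0.535 to 0.627) and Krt15 of 1.57 (1.35 to 1.83), and neither direction was kept under every way of processing: the log2 ratio of Krt14 was 1.12 without cells of high doublet score, and that of Krt15 was −0.13 without its top cell, which held 99 of 237 knockout UMIs.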

How the data were processed

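Single-cell RNA libraries of dorsal skin from 1 WT and 1 Chrna5-/- sample were used. The authors deposited raw UMI counts per gene and cell; per the submitters' processing notes the tools were Cell Ranger 3.0.2 and Seurat 3.0 with genome build mm10, and per the file headers the matrices were written by software version 3.1.0. The cell filter asked for 500 or more UMIs, 300 or more detected genes and no more than 20% of UMIs from mitochondrial genes, which 10160 of 10741 WT and 9308 of 9696 knockout barcodes passed. Doublets stayed in: Scrublet, run in scanpy 1.11.5, marked 0.0295% and 1.19% of cells with its own thresholds, so it had not worked in the WT library, and a score of 0.25 was used in an alternative. Counts were summed over the chosen cells of each library and divided by the sum over all genes. Ratios of CPM have exact conditional binomial 95% intervals, shares exact Clopper-Pearson intervals (scipy 1.17.1), and a count of 0 was set to a floor of 3 UMIs. UMI counts per cell ranged from 1101 to 64257 in the chosen cells, which limits genes of low counts. The ratio procedure was tested on simulated Poisson sums without single cells. That test cannot show how UMIs concentrated in 1 cell affect the intervals and calls. Free RNA was not removed in the main values, though 5% of each sum was subtracted in an alternative. Cells with at least 3 UMIs of T cell genes and fewer than 10 UMIs of Krt5, Krt14, Krt1 and Krt10 together served as the measure of background. The members and gene lists were chosen with earlier results of these data known.

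The genes named were the 8 of the rule, Chrna5, the 12 genes outside the rule with the highest ratio to all other cells, the 8 highest and 8 lowest ratios between the libraries among called genes, and for each list the 4 members with the most UMIs and those with the highest and lowest ratio; others are named as list members by role. The genes called under nearly all ways of processing and the cells with and without Krt71 were chosen after their values were seen. Gene coordinates are those of GENCODE vM21 on GRCm38, and promoter sequences are from the RefSeq table on GRCm38.p6, where 5 of the 5 inner root sheath keratins were matched. The result of 1 further gene is not reported here.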

Additional observations from a re-analysis of the deposited data

How the results depend on the processing

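The ratio of shares lay between 0.303 and 0.461 under all alternatives other than thinning (0.397, interval 0.0923 to 1.34). Of the alternatives, 3 were chosen after seeing the data: keeping only cells with at least 2 UMIs of Dlx1, Dlx2, Dlx3 and Msx1, leaving out the cell with the most UMIs of a gene in the library where it was higher, and leaving out the cell with the most Krt71 UMIs. The share of inner root sheath keratin cells moved to 77.0% (WT) and 69.1% (knockout) with a rule of 2 genes and 3 UMIs, and to 50.9% and 48.5% at a cut of 80%, where no WT cell was left in the Krt35 group (0%). Higher genes numbered 390 with the rule of 2 genes and 3 UMIs, 42 after thinning (2212 genes measured) and 26 without the top cell, against 189. Lower genes numbered 54 after thinning and 186 without the top cell, against 327. The share of called genes that were higher was 36.6%, and became 48.3% with a rule of 4 genes and 10 UMIs, 58.2% with 2 genes and 3 UMIs and 12.3% without the top cell. Of the 189 higher and 327 lower genes, 116 and 195 were still called without cells of high doublet score, 71 and 76 with the looser rule, and 26 and 178 without the top cell.

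Log2 ratios of called genes that changed sign were, without cells of high doublet score, Krt14 1.12, Krt16 0.30, Ly6d 0.56 and H2-K1 0.19. With the stricter rule Vdr was 0.12. With the looser rule they were Sbsn 1.28, Krtdap 1.67, Klk8 0.40, Pkp3 0.00394, Barx2 0.36, Krt10 1.19, Krt14 0.34, Krt16 1.65, Ly6d 0.82, Krt6a 1.44, Krt1 1.12 and Krt79 0.94. After thinning they were Pkp3 0.56 and Hbegf 0.22, and without the top cell Krt15 was −0.13. The cause was not tested. Among values of single genes under the alternatives, 1965 kept their side of the criterion or moved little, 205 moved and 20 changed sign. TMM and median-of-ratios scaling shifted log2 ratios by −0.00958 and −0.0173. Weighting the 3 groups of cells alike was not run, because the knockout library had 1 mixed cell and 0 Krt35 cells. No value was computed for a single gene with under 20 UMIs left. No paired analysis was possible because each genotype had 1 library and no replicate number. With 33 knockout cells, genes of few UMIs limit what can be called.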
